A study of Mus musculus with 6 samples.

Results

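The cardiac myosin heavy chain genes Myh6, Myh7 and Myh7b were examined in neonatal mouse heart. They were chosen by gene symbol in the deposited expression table and make up 3 of its 54532 genes. All 3 were at 1 FPKM or more (a level corrected for gene length and library size, the unit in which the deposited values are read here) in at least 3 of the 6 samples, and so were among the 12431 genes tested. All hearts came from ICR mice labelled WT (ICR is an outbred stock), and the sample names carry the mark 4d, read as day 4. In the control group (n = 3) pregnant mothers had received citric acid by intraperitoneal injection. In the STZ group (n = 3) they had received STZ, read here as streptozotocin, a toxin of pancreatic beta cells used to model diabetes in pregnancy. No label ties a heart to a litter or mother, so p-values measure the spread between these samples alone, which may be technical in part.

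Myosin heavy chains are the motor proteins of the thick filament: the head splits ATP and pulls on actin, and the long tail assembles into the filament. Myh6 encodes alpha myosin heavy chain, the fast isoform that predominates in the adult mouse ventricle, and Myh7 encodes beta myosin heavy chain, the slower isoform that predominates in the fetal mouse ventricle. In rodents the beta isoform gives way to the alpha isoform around birth as thyroid hormone rises, and Myh7 is raised again in many models of cardiac stress. Myh7b encodes a related slow-type heavy chain, much of whose heart transcript is known to be spliced so that it makes no full-length protein.

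Each gene is also the host of a microRNA on the same strand, which is the reason to show these sequences first. In the GENCODE annotation (GRCm38), Mir208a lies in intron 29 of Myh6, Mir208b in intron 31 of Myh7 and Mir499 in intron 19 of Myh7b, counted along the longest protein-coding transcript. The mature sequences, from RefSeq on GRCm38.p6, are written 5′ to 3′ with the seed, bases 2 to 8, in capitals. They map to chr14:54949072-54949093 on the minus strand, chr14:54975710-54975731 on the minus strand and chr2:155622893-155622913 on the plus strand.
miR-208a-3p: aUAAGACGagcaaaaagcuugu
miR-208b-3p: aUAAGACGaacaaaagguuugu
miR-499-5p: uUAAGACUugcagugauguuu
The microRNAs of Myh6 and Myh7 have the same seed and differ at 3 of 22 bases (G10A, A16G and C18U, miR-208a-3p first, counted from the 5′ end). The seed of miR-499-5p differs from theirs by 1 base.

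Myh6 (ENSMUSG00000040752, GRCm38 chr14:54941921-54966927) and Myh7 (ENSMUSG00000053093, chr14:54970684-54994626) lie head to tail on the minus strand, with 3756 bases between the 3′ end of Myh7 and the 5′ end of Myh6. Myh7b (ENSMUSG00000074652) is on another chromosome, at chr2:155611212-155634307 on the plus strand. The longest protein-coding transcripts have 39 exons and 6113 bases for Myh6, 41 exons and 6230 bases for Myh7, and 42 exons and 6163 bases for Myh7b. Aligned over 6043 bases, the Myh6 and Myh7 transcripts were 91.7% identical, and 22.2% of the 50-base stretches of Myh7 also occur in Myh6. Myh7b was 76.8% identical to Myh6 and 77.2% to Myh7 and shared no 50-base stretch with either. How reads that fit both Myh6 and Myh7 were counted is not given in the sources used here, so part of the reads of either gene may belong to the other.

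The 250 bases before each start site are shown because the MCAT element, bound by TEAD factors, is a known feature of cardiac myosin promoters. Sequences are RefSeq's on GRCm38.p6, 5′ to 3′ on the strand of the gene, at chr14:54966608-54966857 (minus), chr14:54994627-54994876 (minus) and chr2:155610993-155611242 (plus). The start sites used here are at 54966607, 54994626 and 155611243. For Myh6 and Myh7b they are not the 5′ gene ends given above. The Myh6 window lies within the Myh6 gene as given above, and the last bases of the Myh7b window lie within Myh7b. The 3756 bases between Myh7 and Myh6 were counted to the gene ends. Capitals mark the MCAT letters GGAATG.
Myh6: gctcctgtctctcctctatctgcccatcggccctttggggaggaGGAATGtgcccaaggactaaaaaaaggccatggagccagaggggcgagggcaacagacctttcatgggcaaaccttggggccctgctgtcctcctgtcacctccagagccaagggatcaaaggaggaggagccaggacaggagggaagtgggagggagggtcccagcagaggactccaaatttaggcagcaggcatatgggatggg
Myh7: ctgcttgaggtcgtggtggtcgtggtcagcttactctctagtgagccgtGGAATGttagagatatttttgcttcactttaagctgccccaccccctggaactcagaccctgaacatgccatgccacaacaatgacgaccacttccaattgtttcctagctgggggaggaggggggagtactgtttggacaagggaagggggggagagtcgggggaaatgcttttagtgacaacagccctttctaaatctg
Myh7b: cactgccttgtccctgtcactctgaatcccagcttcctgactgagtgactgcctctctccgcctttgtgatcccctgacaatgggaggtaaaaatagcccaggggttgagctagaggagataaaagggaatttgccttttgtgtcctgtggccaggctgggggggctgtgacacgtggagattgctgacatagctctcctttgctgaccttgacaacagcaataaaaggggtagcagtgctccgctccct
The search ran on both strands over 300 bases, from 250 before to 50 after the start site. GGAATG occurs once in Myh6, beginning at position -206 from the start site, and once in Myh7, beginning at position -201. It occurs in 14.7% of the 32851 promoters of the same length in the table and is not among the letters of the Myh7b window. The CArG box, the binding sequence of serum response factor, has no match in any of the 3 windows and occurs in 1.63% of all promoters. The E-box CANNTG has 1 match in Myh6, 2 in Myh7 and 2 in Myh7b, and occurs in 72.3% of all promoters. The nuclear receptor half-site AGGTCA and the GATA sequence AGATAA each have 1 match, both in Myh7b, against 16.3% and 11.2% of all promoters. No motif counted here overlaps an MCAT match in letters, and a match is a description of the window alone.

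Libraries held 16707268 to 18082599 reads as recovered from the deposited values. Control 2 stood apart from the other 5 libraries. Its atrial genes were high: the atrial light chain Myl7 was at 3930 FPKM against 2.92 to 18.3 in the others, Nppa at 1389 against 20.2 to 96.4, and sarcolipin (Sln) at 278 against 0 to 0.866. The summed level of the 10 atrial markers was 6639 FPKM in control 2 and 126 to 222 FPKM in the others. The 12 cardiomyocyte markers summed to 6477 FPKM in control 2 and to 11770 to 14031 FPKM in the others, and none was at 0 in any library. The 7 erythroid markers summed to 14548 FPKM against 2229 to 4927, and the 10 fibroblast markers to 1830 against 842 to 1071. The part of this makeup in the results was not tested, and the group differences of the cardiac myosin genes are given with and without control 2. In bulk RNA, fewer cells of a type and less RNA per cell cannot be told apart.

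**Figure D1:**
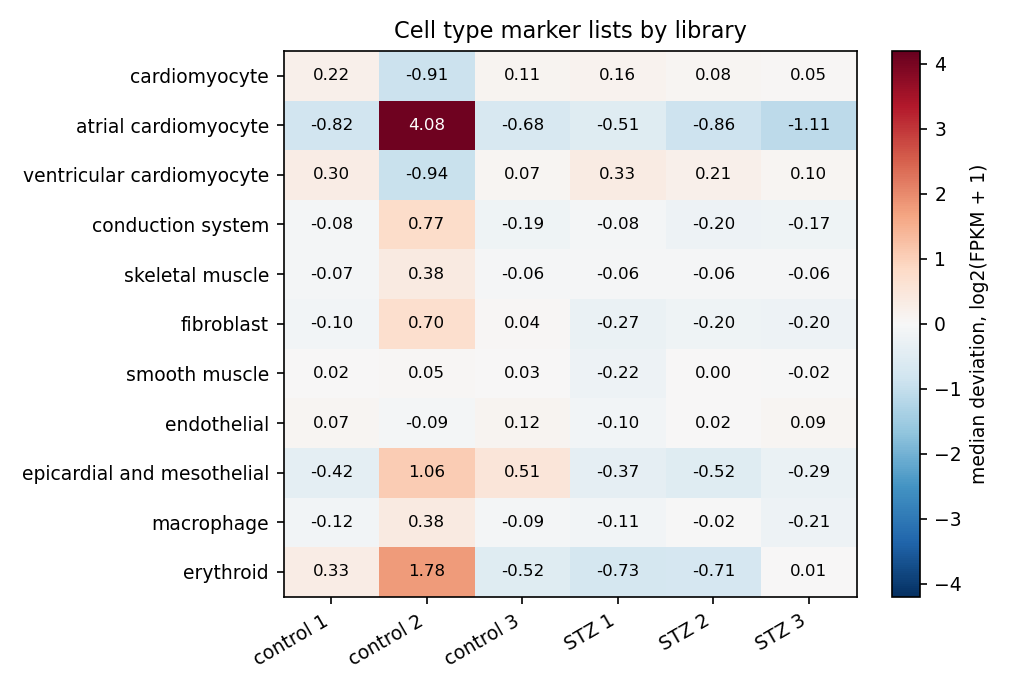
For each cell type marker list and library, the median over the list's genes of each gene's deviation from its own mean over the 6 libraries, on the log2(FPKM + 1) scale. Control 2 is at 4.08 for atrial markers and -0.91 for cardiomyocyte markers, while the other 5 libraries lie between -1.11 and -0.51 and between 0.05 and 0.22.

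Myh6 was the most abundant of the 3 genes in every library. Its level was 2244, 1137 and 2005 FPKM in controls 1 to 3 and 2006, 2098 and 2428 FPKM in STZ 1 to 3. The groups overlapped: control 2 was the lowest library by a wide margin, STZ 3 the highest, and controls 1 and 3 lay within or next to the STZ range. Control hearts had a mean of 1795 ± 582 FPKM, and the STZ mean was 2177 ± 222 FPKM (SD, n = 3 each; exact two-sided permutation test, p = 0.4). The log2 fold change, STZ over control on the log2(FPKM + 1) scale, was 0.33 (SE 0.312; limma, Benjamini-Hochberg adjusted over all genes tested, adjusted p = 0.922). Without control 2 it was 0.03.

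Myh7, the beta isoform, showed the widest difference of the 3. Its level was 107, 42.1 and 108 FPKM in controls 1 to 3 and 230, 184 and 140 FPKM in STZ 1 to 3. All 3 STZ libraries were above all 3 controls, a pattern shown by 611 of the 12431 genes tested (4.92%), and Myh7 was the only member to show it. The means were 85.7 ± 37.8 FPKM and 184 ± 45.0 FPKM (SD, n = 3 each; exact two-sided permutation test, p = 0.1, the smallest that 3 against 3 allows). The log2 fold change was 1.19 (SE 0.391), with a 95% interval of 0.26 to 2.12 that is not adjusted for the number of genes. It did not pass the test across all genes (limma, adjusted p = 0.922). Of all genes tested, 3 passed (0.0241%), and none of the cardiac myosin heavy chains was among them. By size with all 6 libraries, the Myh7 fold change ranked 24 from the top of 12431 genes. Among the 386 genes with a mean of at least 100 FPKM it ranked 2 from the top, and no rank was taken without control 2. Leaving out control 2, where Myh7 was lowest, gave 0.74 (SE 0.2006), and the STZ values still all lay above the controls.

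Myh7b was far less abundant. Its level was 8.02, 4.74 and 9.53 FPKM in controls 1 to 3 and 11.2, 11.9 and 9.48 FPKM in STZ 1 to 3. The groups overlapped by a narrow margin, with control 3 above STZ 3. The means were 7.43 ± 2.45 FPKM and 10.9 ± 1.25 FPKM (SD, n = 3 each; exact two-sided permutation test, p = 0.2). The log2 fold change was 0.53 (SE 0.229; 95% interval -0.01 to 1.08; limma, adjusted p = 0.922). Without control 2 it was 0.28.

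**Figure D2:**
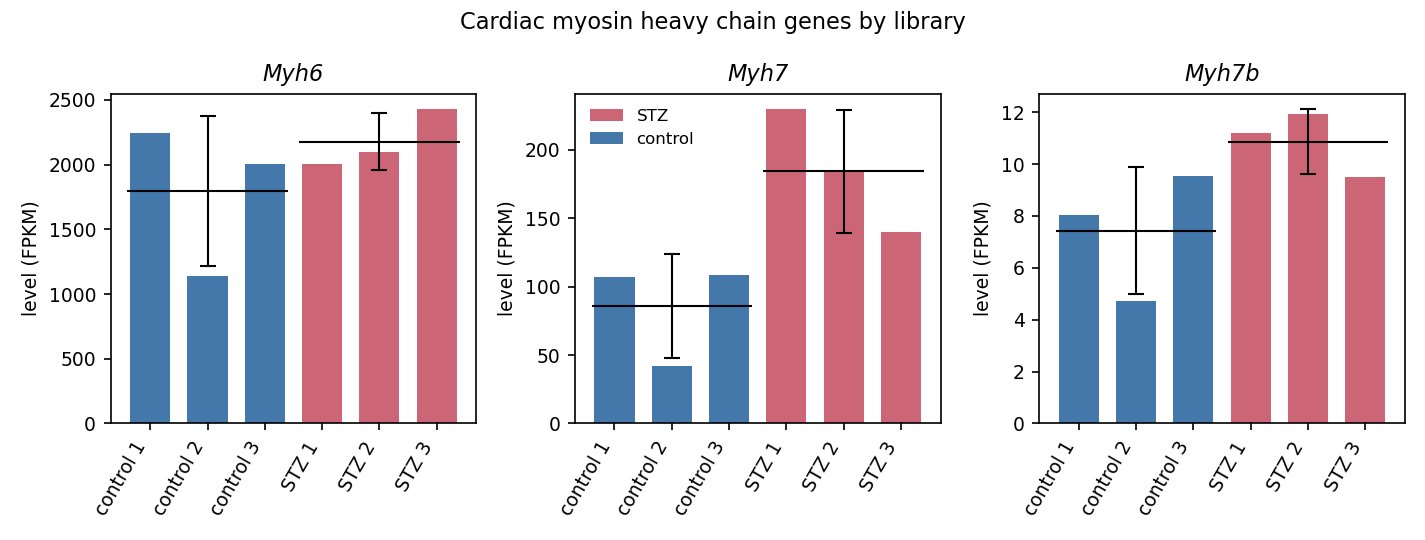
Level in FPKM of Myh6, Myh7 and Myh7b in each library, with bars for single libraries, a horizontal line for the group mean and an error bar for the SD (n = 3). For Myh7 the STZ bars, from 140 to 230 FPKM, all stand above the control bars, from 42.1 to 108 FPKM. For Myh6 and Myh7b the groups overlap, and control 2 is the lowest library in all 3 panels.

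The order of levels per kilobase, Myh6 above Myh7 above Myh7b, was the same in all 6 libraries, and no range of one gene reached that of the next. In FPKM, Myh6 stood at 20.99, 27.0 and 18.5 times Myh7 in controls 1 to 3 and at 8.74, 11.4 and 17.4 times in STZ 1 to 3. Recovered reads for Myh7 ran from 7753 in control 2 to 35199 in STZ 1, so counting error is small beside the spread between libraries. Those for Myh7b ran from 672 in control 2 to 1329 in STZ 2.

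The share of Myh7 in the sum of Myh6 and Myh7 measures the balance of the isoforms within a library, and any scale common to both genes cancels in it. On FPKM the share was 4.55%, 3.57% and 5.12% in controls 1 to 3 and 10.3%, 8.06% and 5.44% in STZ 1 to 3. STZ 3 was close to control 3, and the groups did not overlap. The means were 4.41 ± 0.785% and 7.92 ± 2.42% (SD, n = 3 each), a difference of 3.51 percentage points (exact two-sided permutation test, p = 0.1, again the smallest possible). On the log2 scale the ratio of Myh7 to Myh6 was -4.45 ± 0.277 in control and -3.59 ± 0.500 in STZ hearts, a difference of 0.87. The range among STZ hearts, from 5.44% to 10.3%, was wider than the gap between the group means. Without control 2 the difference in share was 3.09 points and in log2 ratio 0.72. Without STZ 1, the library with the highest share, the difference was 2.34 points, the smallest value with any 1 library left out.

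The share depends on how each gene's length is counted. The deposited lengths, 6726 bases for Myh6, 8616 for Myh7 and 6634 for Myh7b, equal the union of all annotated exons. In Myh7, 2237 of these bases belong only to transcripts annotated as retained introns, against 550 in Myh6 and 471 in Myh7b. Divided by the longest protein-coding transcript instead, the share was 5.48 ± 0.965% in control and 9.75 ± 2.92% in STZ hearts (SD, n = 3 each), a difference of 4.27 points. From recovered reads with no length at all it was 5.58% and 9.92%. In reads, the 95% Clopper-Pearson interval was 4.43% to 4.62% in control 2, the lowest library, and 12.7% to 12.9% in STZ 1, the highest; such intervals cover counting error only. The highest control and the lowest STZ library were at 6.37% to 6.56% (control 3) and 6.78% to 6.95% (STZ 3), so these neighbours differed by more than counting error but by far less than the spread within either group. The log2 ratio difference of 0.87 is the same under all of these lengths, because a length is a constant factor in every library.

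**Figure D3:**
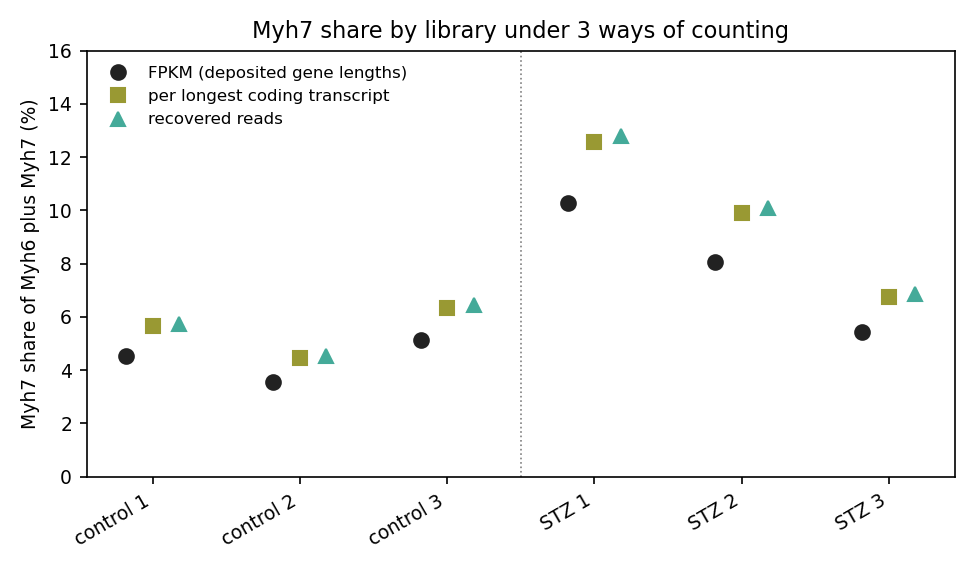
Myh7 as a percentage of Myh6 plus Myh7 in each library, from FPKM, from reads per base of the longest protein-coding transcript, and from recovered reads. Under each way of counting the 3 STZ libraries lie above the 3 controls, and STZ 3 lies close to control 3.

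Set against other cardiomyocyte genes, the groups stood apart for Myh7 and overlapped for Myh6 and Myh7b. Relative to the median of the 12 cardiomyocyte markers, which include no myosin heavy chain, Myh6 was at 2.08, 2.09 and 2.23 log2 units in controls 1 to 3 and 1.98, 2.13 and 2.44 in STZ 1 to 3. Control 2, the low library in FPKM, was level with control 1 on this scale, and the difference between the groups was 0.05 (exact permutation test, p = 0.8) and 0.03 without control 2. Myh7 was at -2.30, -2.63 and -1.97 in controls and at -1.15, -1.37 and -1.67 in STZ hearts. The Myh7 groups did not overlap here either, with a difference of 0.91 (exact permutation test, p = 0.1) that was 0.74 without control 2. Relative to the 7 ventricular markers, which include the ventricular light chains Myl2 and Myl3, the Myh7 difference was 0.87, again with no overlap, and that of Myh6 was 0.01. Control 2 was the lowest library for all 3 members on this scale too. Without it the Myh7 difference was 0.46, still with no overlap, and that of Myh6 was -0.25, with all STZ values below the other 2 controls. Myh7b differed by 0.25 relative to the cardiomyocyte markers and by 0.21 relative to the ventricular ones, with overlap on both scales. Without control 2 these Myh7b differences were 0.27 and -0.01.

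The level of Myh7b was also set against that of Myh7, since both encode slow-type chains. In FPKM, Myh7b was 7.50%, 11.3% and 8.81% of Myh7 in controls 1 to 3 and 4.87%, 6.48% and 6.79% in STZ 1 to 3. All STZ libraries were below all controls, with means of 9.19 ± 1.91% and 6.05 ± 1.03% (SD, n = 3 each; exact two-sided permutation test, p = 0.1). Without control 2 the control mean was 8.15% and the groups still did not overlap. The log2 ratio of Myh7b to Myh6 differed by 0.27 between the groups with or without control 2 (exact permutation test, p = 0.3 and 0.4).

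Across the 6 libraries, Pearson's r of log2(FPKM + 1) between members was 0.79 for Myh6 with Myh7, 0.81 for Myh6 with Myh7b and 0.96 for Myh7 with Myh7b. Over the 5 libraries other than control 2 these values were -0.32, -0.48 and 0.85, so the positive correlations of Myh6 with the other members rest on control 2. The likest patterns were sought among 6734 tested genes with a mean of at least 5 FPKM. Symbols of microRNAs, snoRNAs, pseudogenes and clones, such as Gm and Rik names, were left out. The genes with the likest pattern to Myh6 were Jup, Ash1l, Pdp1, Fignl1 and Ryr2, with r from 0.995 to 0.999. For Myh7 they were Speg, Pdcl3, Smpd2, Slc39a9 and Kdm1a, with r from 0.990 to 0.995. For Myh7b they were Tmem185b, Gpat3, Sf1, Nemf and Tox4, with r from 0.988 to 0.996. Over the 5 libraries other than control 2, r for these 15 pairs ran from 0.932 to 0.997. As the genes were picked by r over all 6 libraries, these values are no separate check of the matches. Speg, a kinase of striated muscle, shows how unlike in size such matches can be. Its level was 13.9, 10.03 and 14.0 FPKM in controls 1 to 3 and 17.7, 17.1 and 14.7 FPKM in STZ 1 to 3, a log2 fold change of 0.37 against 1.19 for Myh7.

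Within the Myh7 gene, the microRNA and the antisense RNA had lower mean levels in STZ hearts, with groups that overlapped over all 6 libraries. Over the Mir208b hairpin, in intron 31 of Myh7, 18, 50 and 30 reads were recovered in controls 1 to 3 and 11, 21 and 31 reads in STZ 1 to 3. The order among STZ libraries was the reverse of that of Myh7: STZ 1, highest for Myh7, was lowest for Mir208b. In FPKM, Mir208b had a log2 fold change of -0.54 (SE 0.395; limma, adjusted p = 0.922) and the groups overlapped (exact permutation test, p = 0.4). Without control 2 it was -0.29. Counts this small carry wide counting error, from 5.49 to 19.7 reads (95% Poisson interval) in STZ 1 and from 37.1 to 65.9 in control 2. Per 1000 reads of Myh7, Mir208b had 1.16, 6.45 and 1.84 reads in controls and 0.313, 0.789 and 1.39 reads in STZ hearts. These are reads of long RNA over the hairpin gene, which do not measure the mature microRNA. Mir208a, in Myh6, had 0, 2 and 0 reads in controls and 0, 0 and 1 in STZ hearts, and Mir499, in Myh7b, had 0 reads in all 6 libraries, which allows up to 3 reads in each.

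Mhrt, an antisense RNA known in mouse as a partner of the chromatin remodeller Brg1, lies at chr14:54968678-54974349 on the plus strand. Of its 1214 exonic bases, 767 lie within the Myh7 gene and 484 within Myh7 exons on the opposite strand. It had 77, 72 and 67 reads in controls 1 to 3 and 35, 51 and 67 reads in STZ 1 to 3. STZ 1, highest for Myh7, was also lowest for Mhrt, and STZ 3 had as many reads as control 3. The level was 3.77, 2.77 and 3.15 FPKM in controls and 1.62, 2.50 and 2.97 FPKM in STZ hearts. The overlap in FPKM rested on control 2, and all STZ values were below controls 1 and 3. How many of all genes show that pattern without control 2 was not counted. The log2 fold change of Mhrt was -0.34 (SE 0.180; limma, adjusted p = 0.922), and -0.42 without control 2. No strand setting of the counting is given in the sources used here, so reads of Mhrt and Myh7 in their shared bases cannot be told apart. A second antisense RNA on the list, Myhas, was listed at 0 in all 6 libraries.

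**Figure D4:**
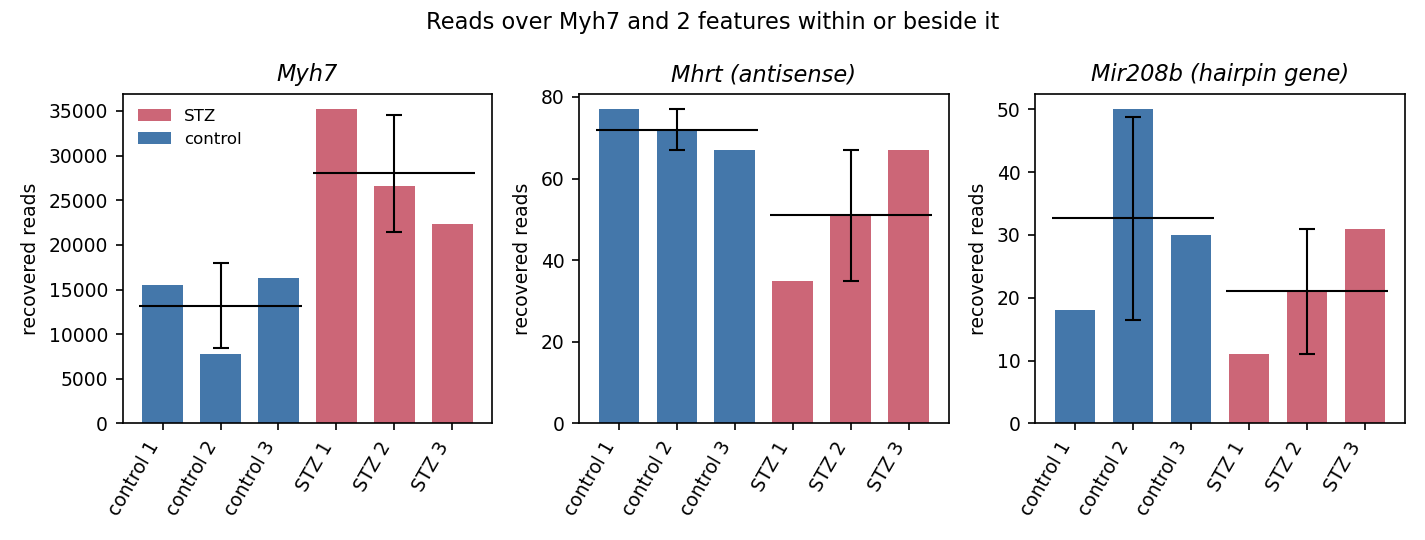
Recovered reads over Myh7, the antisense RNA Mhrt and the Mir208b hairpin gene in each library, with the group mean (line) and SD (error bar, n = 3). STZ 1 is the highest library for Myh7, at 35199 reads, and the lowest for Mhrt and Mir208b, at 35 and 11 reads.

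Of the other sarcomeric heavy chains, Myh1, Myh2, Myh3, Myh4, Myh8, Myh13 and Myh15, none of 7 reached 1 FPKM in 3 libraries. The highest value was that of perinatal Myh8 in control 2, at 2.35 FPKM against 0.121 to 0.325 in the other libraries. The 4 non-muscle and smooth muscle heavy chains were all tested, and none passed. Myh9 and Myh10, which encode non-muscle chains, stood at 20.9 ± 1.02 and 31.0 ± 1.65 FPKM in control hearts (SD, n = 3 each) and at 23.4 ± 1.84 and 32.4 ± 1.18 FPKM with STZ. Myh11, the smooth muscle chain, was at 5.76, 10.8 and 5.99 FPKM in controls and 4.38, 5.12 and 4.40 FPKM in STZ hearts. All its STZ values were below the controls, a pattern shown by 450 of the 12431 genes tested. Its log2 fold change was -0.55 (SE 0.220, limma adjusted p = 0.922), and -0.29 without control 2. Myh9, Myh10 and Myh14 had log2 fold changes of 0.16, 0.06 and 0.07, which were 0.14, 0.10 and -0.03 without control 2.

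The lists of partner and regulator genes had 91 distinct genes tested, of which 0 passed in limma or in limma voom on recovered reads. In limma, 2 of the 91, Myh11 and Dio2, had an unadjusted p under 0.05, against 322 of all 12431 genes tested. Over all 12431 genes the median log2 fold change was 0.03, with 57.7% of genes above 0. Without control 2 the median was -0.0016, with 49.4% above 0.

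Thick filament partners had higher values in STZ hearts for 8 of the 10 tested, with a median log2 fold change of 0.43, and the median was 0.07 without control 2. The ventricular light chains Myl2 and Myl3, which bind the neck of the heavy chain, had log2 fold changes of 0.45 and 0.46, which became 0.09 and 0.04 without control 2. Mybpc3, the cardiac myosin binding protein C, was at 0.60 and 0.15. The atrial light chains Myl7 and Myl4 were at -3.97 and -1.69 with control 2 and at -1.14 and 0.63 without it. Beside these, Myh7 was 1.19 and 0.74.

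The chaperones and ligases of myosin folding and turnover were higher in STZ hearts for 10 of 11, with a median of 0.14, and for 10 of 11 without control 2, with a median of 0.12. These were not the same 10 genes. The lower gene was Trim54, at -0.26, with all 6 libraries. Without control 2 the lower gene was Cryab, and Trim54 was at 0.12. The most abundant of the 11 were the chaperones Hsp90ab1, Cryab and Hspb1 and the muscle ring finger protein Trim55. Trim55 was at 155.0, 73.6 and 140 FPKM in controls and 181, 202 and 155.2 FPKM in STZ hearts. All its STZ values were above the controls, with STZ 3 all but level with control 1. That pattern was shown by 611 of the 12431 genes tested (4.92%). The Trim55 log2 fold change was 0.60, and 0.27 with control 2 left out. Hsp90ab1, Cryab and Hspb1 had log2 fold changes of 0.14, 0.12 and 0.32, which were 0.02, -0.06 and 0.13 without control 2. The adult sarcomere genes were higher for 13 of 15, with a median of 0.35, which was 9 of 15 and 0.01 without control 2. Among them, troponin C (Tnnc1) was at 0.14 and cardiac actin (Actc1) at 0.36, and these were 0.03 and -0.08 without control 2.

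Thyroid hormone is the known driver of the rodent switch from Myh7 to Myh6, and 11 of the 15 genes of that pathway were tested. Of these, 8 were higher and 3 lower in STZ hearts, with a median of 0.10, and 5 were higher and 6 lower without control 2, with a median of -0.02. Thra, the main thyroid hormone receptor of the heart, was at 34.0, 34.1 and 31.7 FPKM in controls and 37.7, 34.8 and 35.4 FPKM in STZ hearts. Its STZ values were all above the controls, a pattern shown by 611 of the 12431 genes tested. The log2 fold change of Thra was small, at 0.11 (SE 0.103; limma, adjusted p = 0.922). Dio2, the deiodinase that makes active hormone, was low, at 1.70, 2.27 and 1.70 FPKM in controls and 0.628, 1.47 and 1.20 FPKM in STZ hearts. All its STZ values were below the controls, a pattern shown by 450 of the 12431 genes tested. Its log2 fold change was -0.48 (SE 0.187, limma adjusted p = 0.922), and -0.38 without control 2. Thrb did not reach 1 FPKM outside control 2, and Dio3, which inactivates the hormone, was listed at 0 in all 6 libraries. The receptor partner Rxra had a log2 fold change of 0.21, which was 0.11 without control 2.

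Of 33 transcriptional regulators of the cardiac myosin genes, 31 were tested. Of these, 23 were higher and 8 lower, with a median of 0.09, and 16 were higher and 15 lower without control 2, with a median of 0.01. Tead1, a factor that binds the MCAT letters shown above, was at 21.7, 12.1 and 22.4 FPKM in controls and 21.2, 23.2 and 25.5 FPKM in STZ hearts. The groups overlapped, and the log2 fold change of 0.34 became 0.07 without control 2. Mef2c had 0.12, which was -0.07 without control 2, and Mef2d, Gata4, Nkx2-5 and Srf had 0.25, 0.23, 0.23 and 0.20. Without control 2 these were 0.01, 0.09, 0.06 and -0.01.

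Myh7 is often read with other genes of the fetal or stress programme. Of 15 genes listed as fetal or stress responsive, 9 were higher and 6 lower, with a median of 0.09. Without control 2 these were 7 and 8, with a median of -0.02. Actc1, Tnni3 and Pln of this list are also on the list of adult sarcomere genes, so the counts do not measure agreement with Myh7. Nppb, which encodes brain natriuretic peptide, was at 14.8, 28.9 and 71.9 FPKM in controls and 73.6, 75.5 and 29.7 FPKM in STZ hearts, with overlap. Acta1, skeletal actin, lay the other way from Myh7, at 123, 62.5 and 64.0 FPKM in controls and 32.5, 43.1 and 95.1 FPKM in STZ hearts, also with overlap. Nppa, the atrial natriuretic peptide, was at 29.7 and 20.2 FPKM in controls 1 and 3, 1389 FPKM in control 2, and 96.4, 25.3 and 64.1 FPKM in STZ hearts. The log2 fold changes of Nppb, Acta1 and Nppa were 0.78, -0.62 and -0.81, and without control 2 they were 0.72, -0.78 and 1.11, so that of Nppa turned sign and was then above the 0.74 of Myh7. Atp2a2, the calcium pump of the sarcoplasmic reticulum, its inhibitor Pln and the cardiac troponin I gene Tnni3 had log2 fold changes of 0.31, 0.70 and 0.12, which were 0.07, 0.01 and -0.02 without control 2. Tnni1, a second troponin I gene on the list, had 0.56 with overlapping groups, and 0.24 without control 2. Differences between Myh7 and these genes were not tested.

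**Figure D5:**
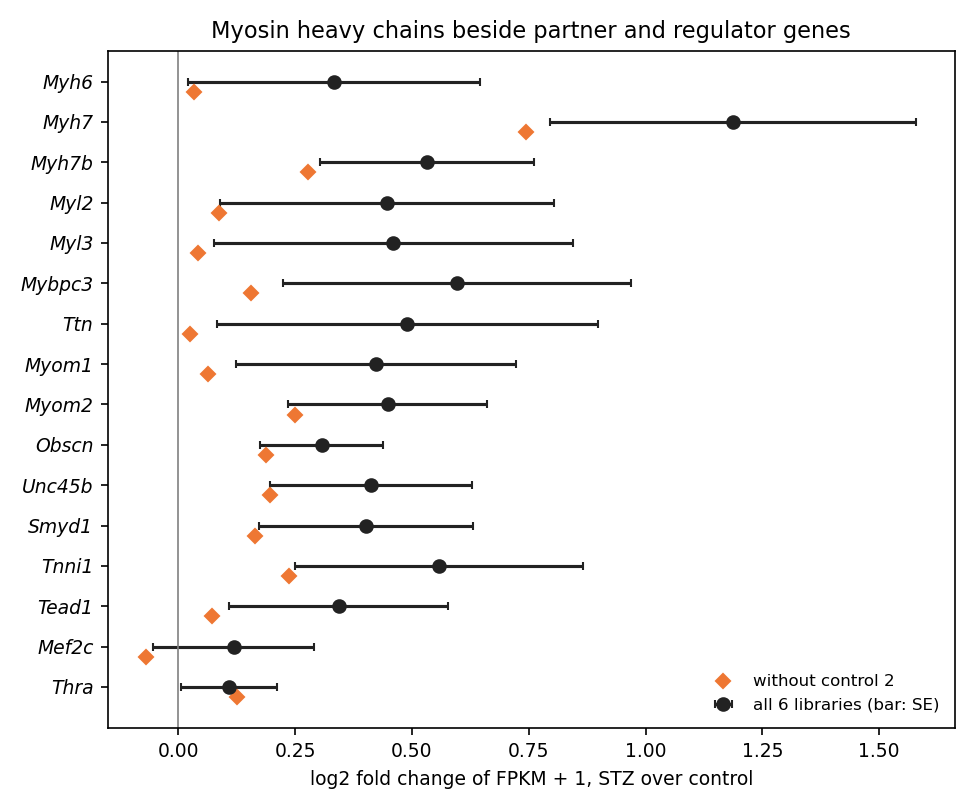
Log2 fold change of FPKM + 1, STZ over control, for the 3 myosin heavy chains and 13 partner, regulator and stress genes, with all 6 libraries (circles, bar for the SE) and without control 2 (diamonds). All 13 have positive values with all 6 libraries, and Tnni1 alone is from the list of fetal or stress responsive genes. Nppa, Nppb, Acta1, Myl4, Myl7 and Dio2 are among the genes not plotted. Of the genes plotted, Myh7 is farthest to the right under both, at 1.19 and 0.74, and Myh6 moves from 0.33 to 0.03.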

How the data were processed

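RNA from 6 mouse hearts was sequenced; per the labels' protocols, the libraries came from a SMARTER kit for mRNA, and the genome build was GRCm38 (mm10), per the submitters' processing notes. Which aligner and counter were used, and whether strand was considered, is not given in the sources used here. The deposited values are read as FPKM, per kilobase of the deposited gene length and per a library scale of the authors' choosing. The unit itself stands in no header and was read from the table's abbreviation and its values. Multiplying by gene length turned 100% of the values above 0 into whole multiples of 1 step per library (tolerance 0.01 reads), called recovered reads here. Set against the recovered totals, the scale the authors used was 1.21 in control 2 and 0.985 to 1.03 elsewhere.

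Groups came from the treatment labels. Genes with 1 FPKM or above in 3 or more samples (12431) were fitted on log2(FPKM + 1) with limma (version 3.58.1, under R 4.3.3), using its variance trend and a single term for group. Two-sided p-values were adjusted over those genes by the Benjamini-Hochberg method and judged at 0.05. Fold changes on this scale understate those of low genes. Single values had exact permutation tests over the 20 assignments of 3 of 6 samples. The fit was tested on simulated data. Alternatives varied the pseudocount, filter, scaling, weights, replicate block, left-out sample, gene set and length, and used limma voom on recovered reads. Those for coding-transcript length, ventricular centring, protein-coding genes alone, and list counts and member ratios without control 2 were added after the data were seen.

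The members, lists and markers were chosen with earlier results of these data known. The rule named the members, tested genes of the heavy chain and locus lists, the 4 most abundant genes of each other list, 13 genes of textbook interest, and the 5 genes of likest pattern per member, and 2 genes that the rule names are not reported here; other genes named were chosen after their values were seen. No pair of libraries of a group agreed within sampling noise (chi-square per degree of freedom at least 11.8). Annotation was GENCODE M21, and alignments used Biopython 1.88. Plots used matplotlib 3.10.9 (Python 3.11.15).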

Additional observations from a re-analysis of the deposited data

How the results depend on the processing

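All 3 members kept a positive fold change, and an adjusted p above 0.05 in limma, under each of 12 alternatives with all 6 libraries and 6 with a library left out. The log2 fold change of Myh7 ran from 0.80 (array weights) to 1.21 (quantile normalization) with all libraries, with adjusted p from 0.209 to 0.959, and from 0.74 to 1.41 with 1 library left out. That of Myh6 ran from 0.01 (centred on ventricular markers) to 0.33, and from 0.03 to 0.52 with 1 left out. That of Myh7b ran from 0.21 (the same centring) to 0.59, and from 0.28 to 0.72. The lowest left-out value of each was without control 2. The difference in Myh7 share ran from 3.49 to 4.34 points with all libraries and from 2.34 to 4.75 points with 1 left out, and the log2 ratio difference from 0.86 to 0.87 and from 0.64 to 1.13. With 1 left out, the smallest exact permutation p that 2 against 3 gives is 0.2, so these p-values say nothing of stability.

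The deviations of same-numbered libraries had Pearson r of 0.02, -0.04 and 0.09, and those of other pairs ran from -0.14 to 0.08. With 3 libraries per group, these values cannot settle whether same-numbered libraries share more than a number. With the replicate block, the log2 fold changes of Myh6, Myh7 and Myh7b were 0.33, 1.19 and 0.53 (limma, adjusted p = 0.935 each), and the share difference was 3.51 points, with a sign-flip permutation test that cannot go below 0.25.

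Over all genes 2 passed as higher and 1 as lower. The higher count was 1 with a pseudocount of 0.1, with no filter, with a mean of at least 5 FPKM and with voom, and 0 with protein-coding genes alone and with the replicate block. The lower count was 2 with quantile normalization, 6 with array weights, and 0 with voom, with protein-coding genes alone and with the replicate block. In limma, 257 and 373 genes had an unadjusted p under 0.05 in those last 2 fits, 254 with voom and 322 in the main test. With 1 library left out, 1 to 2 genes passed as higher and 1 to 3 as lower. The thyroid hormone genes with higher values went from 8 to 5 without control 2. Relative to the ventricular markers, leaving out control 2 took the Myh6 difference from 0.01 to -0.25 and that of Myh7b from 0.21 to -0.0063. The counts of Mhrt and Mir208b, at most 77 reads in a library, carry counting error beside the spread between hearts. The causes of these shifts were not tested.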
